A study of Homo sapiens with 2 samples.

Results

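CD40 pathway genes and feedback regulators of NF-kB were examined as 9 windows of hg19, drawn round CD40, TRAF1, TRAF3, BIRC3, MAP3K8, NFKBIA, NFKBIE, TNFAIP3 and TNIP1. A peak was counted in a window when its highest point lay inside it. This gave 52 peaks of the 24824 in a list made by chromatin immunoprecipitation with sequencing (ChIP-seq) of the histone methyltransferase KMT2D (MLL4). The cells were OCI-LY7, an established cell line from diffuse large B-cell lymphoma of the germinal centre type, wild type in genotype per the labels and with no treatment named beyond formaldehyde fixation. There was 1 library from an antibody raised in-house to the N-terminal part of KMT2D and 1 input library without antibody, of which only the KMT2D peak list was analysed here. With 1 library of 1 line, no replicate spread exists, and intervals below reflect the number of peaks alone, although peaks are not independent of each other. The read depth is unknown, and a stretch with no listed peak may still bind KMT2D.

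KMT2D adds methyl groups to histone H3 at lysine 4, mainly at enhancers. CD40 is the receptor through which T helper cells signal to germinal centre B cells, and its tail recruits TRAF adaptor proteins. In resting cells TRAF3, with cellular inhibitor of apoptosis proteins such as BIRC3, keeps the kinase that starts the non-canonical NF-kB route at a low level. In the canonical route the IkB proteins hold NF-kB in the cytoplasm until they are degraded, and NF-kB then induces several of its own inhibitors, which closes a feedback loop.

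The DNA under the peaks is not shown, since no hg19 sequence was used here. The RefSeq promoter table, on build GRCh38.p14, holds 250 bases before and 50 after each start, and 7 of the 9 genes matched it with 12 promoters; CD40 and NFKBIE did not match. NF-kB binds the kappa B motif, so the promoters that hold a long form of it are printed 5′ to 3′ on the strand of the gene, with the motif in capitals. Both strands were searched for 3 forms of 10 letters. The first long form is GGGA, any base and TTTCC. The second, GGGG, any base and TTTCC, was added after the sequences were seen. The loose form is GGGA, any 4 bases and CC, and every match of the first long form is also a match of it.
TNFAIP3: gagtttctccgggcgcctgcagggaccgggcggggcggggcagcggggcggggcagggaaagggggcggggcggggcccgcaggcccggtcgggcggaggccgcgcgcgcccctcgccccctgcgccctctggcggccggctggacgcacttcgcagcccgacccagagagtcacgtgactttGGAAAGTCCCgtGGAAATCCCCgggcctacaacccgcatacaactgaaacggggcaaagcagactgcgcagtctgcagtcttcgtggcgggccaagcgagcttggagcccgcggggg
NFKBIA: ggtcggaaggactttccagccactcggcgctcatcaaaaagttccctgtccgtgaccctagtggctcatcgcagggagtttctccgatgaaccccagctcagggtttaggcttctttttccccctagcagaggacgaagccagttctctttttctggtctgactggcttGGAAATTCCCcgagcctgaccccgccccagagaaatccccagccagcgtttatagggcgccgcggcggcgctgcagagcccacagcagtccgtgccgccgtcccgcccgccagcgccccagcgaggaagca
TNIP1: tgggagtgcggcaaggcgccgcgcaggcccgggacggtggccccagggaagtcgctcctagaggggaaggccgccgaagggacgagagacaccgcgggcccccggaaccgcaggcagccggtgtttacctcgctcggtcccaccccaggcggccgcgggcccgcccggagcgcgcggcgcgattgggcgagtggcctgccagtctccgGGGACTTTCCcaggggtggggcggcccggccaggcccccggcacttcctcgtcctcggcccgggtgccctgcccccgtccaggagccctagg
BIRC3: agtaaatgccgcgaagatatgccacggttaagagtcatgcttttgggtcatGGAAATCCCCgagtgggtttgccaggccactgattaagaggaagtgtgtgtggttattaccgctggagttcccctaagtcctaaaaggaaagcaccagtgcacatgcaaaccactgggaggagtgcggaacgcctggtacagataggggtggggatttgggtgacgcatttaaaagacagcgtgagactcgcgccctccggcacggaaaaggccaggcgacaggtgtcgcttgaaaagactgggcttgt
TRAF3: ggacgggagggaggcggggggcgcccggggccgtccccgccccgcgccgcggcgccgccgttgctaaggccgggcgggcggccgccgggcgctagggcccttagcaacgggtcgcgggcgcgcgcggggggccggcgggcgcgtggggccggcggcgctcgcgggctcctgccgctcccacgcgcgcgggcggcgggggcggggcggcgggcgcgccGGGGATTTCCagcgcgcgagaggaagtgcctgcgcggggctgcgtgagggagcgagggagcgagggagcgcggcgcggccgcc
The first long form was in 1 promoter each of TNFAIP3, NFKBIA and TNIP1, so in 3 of the 12 promoters, against 0.558% of all 35114 promoters. The second long form was in those of TNFAIP3, BIRC3 and TRAF3, so in 3 of the 12, and in 0.470% of all. Since this form was chosen with these sequences known, no excess over all promoters can be read from its 3 of 12. The loose form was in 8 of 12, from 6 genes, against 25.6% of all. These 8 are not independent of each other. The MAP3K8 promoters chr10:30433771-30434070 and chr10:30433934-30434233 overlap and hold the same match, at bases 222 and 59. TNFAIP3 held both long forms, at bases 184 and 196 of its 300, with a gap of a few bases between them. On GRCh38.p14 the printed promoter of TNFAIP3 is chr6:137867009-137867308 (plus strand), that of NFKBIA chr14:35404700-35404999 (minus), that of TNIP1 chr5:151080985-151081284 (minus), that of BIRC3 chr11:102317234-102317533 (plus) and that of TRAF3 chr14:102777199-102777498 (plus). A match is a description of letters and not a site, and these promoters were not placed relative to the hg19 peaks.

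KMT2D peaks were dense in these windows but very unevenly shared. The TRAF1 window held 19 peaks, the NFKBIE window 10 and the TNIP1 window 8, which together were 71.2% of the 52. The MAP3K8 window held 5 and the TRAF3 window 3, the CD40, BIRC3 and NFKBIA windows 2 each, and the TNFAIP3 window 1. Together the windows had 43.3 peaks per Mb over 1.2 Mb (exact 95% Poisson interval 32.4 to 56.8), against 8.43 per Mb in the rest of the list on chromosomes 1 to 22 and X, a ratio of 5.14 (3.84 to 6.74). Without the TRAF1 window the ratio was 3.66. The windows were drawn round genes, whereas the rest of the list spans gene-poor sequence too.

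Density reached at least 2 times that of the list, or 16.9 peaks per Mb, in 6 of the 9 windows, against 14.5% of 22555 consecutive tiles of 130 kb over the same chromosomes. The tile share depends on length, since a window of 100 or 110 kb reaches the limit with 2 peaks and one of 130 kb needs 3. Over the lengths of the 9 windows it ran from 13.1 to 19.2%. The BIRC3 window, at 16.7 per Mb, lay just under that limit, and the TNFAIP3 window, at 9.09 per Mb, and the TRAF3 window, with 3 peaks in 240 kb, lay below it. Against all tiles of its own length, the TRAF1 window was matched or exceeded by 24 tiles (0.106%), the NFKBIE window by 0.904% and the TNIP1 window by 4.15%. The MAP3K8 window was matched by 7.03%, and the other windows by 17.7 to 33.3% of tiles.

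Each window was also set beside the 500 kb on either side of it. All 9 windows together had 43.3 peaks per Mb, against 13.1 per Mb in these flanks (118 peaks), a ratio of 3.31 (2.34 to 4.62). The TRAF1 window gave 19 of the 52 window peaks but 10 of the 118 flank peaks. It therefore raised this ratio, and the ratio without it was not computed. The TRAF1 window, at 146 peaks per Mb against 10 per Mb in its flanks, exceeded them 14.6 times (6.47 to 35.2). The NFKBIE window (100 against 14 per Mb; 7.14 times, 2.84 to 17.3) and the MAP3K8 window (38.5 against 7 per Mb; 5.49 times, 1.38 to 20.1) were the other two whose interval lay above 1. The MAP3K8 ratio rests on 5 peaks against 7. At the common minimum height of 26, 2 of those 5 remained, so most were near the floor of the list. The TNIP1 window stood in a fuller neighbourhood, with 50 per Mb against 26 per Mb in its flanks (1.92 times, 0.753 to 4.37). The TRAF3 and CD40 windows had fewer peaks per Mb than their flanks, 0.833 times (0.155 to 2.95) and 0.866 times (0.0984 to 3.54), and both intervals include 1.

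**Figure D1:**
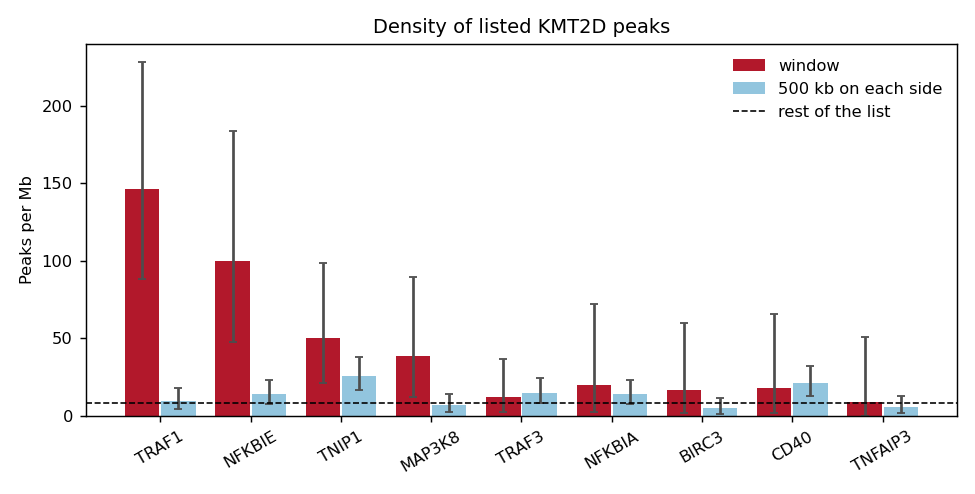
Peaks per Mb (vertical axis) in each of the 9 windows (red) and in the 500 kb on each side of it (blue), with exact 95% Poisson intervals as bars and the rest of the list as a dashed line. The TRAF1 window stands at 146 and the NFKBIE window at 100 peaks per Mb, against 8.43 per Mb in the rest of the list.

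Heights of the window peaks ranged widely round the median of the list. Height is the authors' own whole number per peak, read as the signal at its highest point, in units that are not stated. Its median was 35.5 over the 52 peaks (95% interval of the median 28 to 47, range 19 to 98), against 39 (39 to 40) in the rest of the list. Of the 52, 13 (25%; exact interval 14.0 to 38.9%) reached the upper-quartile height of the list, 59, and the background is 25.9% of all peaks. The significance values of the 52 ran from -15.2 to -69.0, where a more negative value is stronger. A value of minus infinity is listed for 30 of the 24772 peaks analysed and for none of the 52. So few peaks carry it that their absence among 52 is no result about these windows. The lowest listed height was 16 to 21 on the 7 chromosomes concerned, so the peaks of height 19 to 23 named below are near the lower end of what the list holds there.

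**Figure D2:**
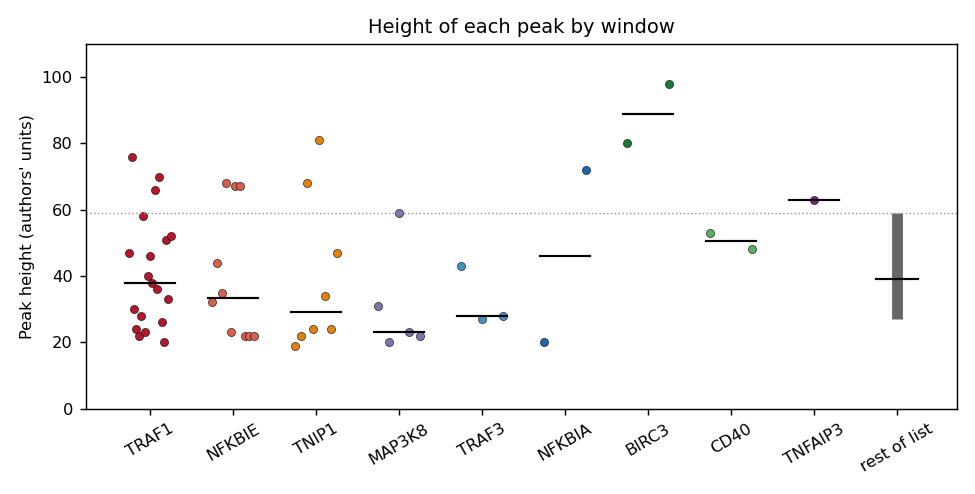
Height of each of the 52 window peaks in the authors' units (vertical axis), by window, with the median as a black line; the grey bar is the interquartile range of the rest of the list and the dotted line its upper quartile, 59. Both peaks of the BIRC3 window lie above 59, while the TRAF3 and CD40 windows hold no peak that reaches it.

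In the window of the receptor, CD40, peaks were few, with heights between the median and the upper quartile of the list. The window at 44.70 to 44.81 Mb of chromosome 20 held a peak of height 53 and width 1055 bp at chr20:44717814-44718869 and one of height 48 and width 1516 bp at chr20:44746744-44748260. They stood 27.9 kb apart and each was a lone peak, which means that no other listed peak lay within 12500 bp. The lower peak was the wider one and was at least as wide as 94.9% of the 78 peaks on chromosome 20 whose height was within 10% of its own (peaks of like height, here and below). The flanks of this window held 21 peaks per Mb, of median height 59 and reaching 205. With 2 peaks, the density of the window (18.2 per Mb) cannot be told apart from that of its flanks. The GRCh38 gene table names NCOA5 and CDH22 as the protein-coding neighbours of CD40, and no peak in any window was assigned to a gene. A window may also hold neighbouring genes, which was not determined here.

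TRAF1, an adaptor of the TRAF family without a RING domain that is strongly induced by NF-kB, had the fullest window. All 19 peaks at 123.61 to 123.74 Mb of chromosome 9 joined into a single cluster at chr9:123630803-123699065, a span of 68.3 kb of which peaks covered 23.3%. Covered sequence made up 12.3% of this window, against 0.583% of the spans of the rest of the list. The tallest peak, chr9:123638002-123640455, reached a height of 76 and at 2453 bp was also the widest. None of the 89 peaks of like height on chromosome 9 was wider. The next tallest were chr9:123675788-123676607, with a height of 70 and a width of 819 bp, and chr9:123665980-123666976, with a height of 66 and a width of 996 bp. The other 16 peaks had heights of 20 to 58, and 10 of the 19 lay below the list median of 39.

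The TRAF1 cluster was built from smaller groups. When only peaks at most 5 kb apart were joined, it fell into 5 groups of 1, 4, 8, 1 and 5 peaks, in the order of the chromosome. The group of 8 spanned 14.4 kb at chr9:123653916-123668355 and the group of 5 spanned 10.2 kb at chr9:123688875-123699065. Of the 18 gaps between neighbouring peaks, 8 were under 500 bp, the shortest being 114 bp. When peaks under 500 bp apart were merged, the 19 peaks became 11, of which the one holding the tallest peak covered 3.82 kb. Of the 19, 7 belonged to the higher-scoring 50% of the list. The largest gap was 12.3 kb, close to the stitching distance of 12500 bp. The protein-coding neighbours of TRAF1 in the GRCh38 gene table are PHF19 and C5. Which of the 19 peaks, the tallest included, lie at TRAF1 and which at a neighbour was not determined.

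The window of TRAF3, which restrains non-canonical NF-kB signalling and is recurrently lost in B-cell tumours, had little listed signal. It was the longest window, 240 kb at 103.19 to 103.43 Mb of chromosome 14, and held 3 peaks. The tallest, chr14:103367963-103368451, had a height of 43 and a width of 488 bp. The others, of heights 27 and 28 and widths 165 and 169 bp, lay 126 bp apart at chr14:103380654-103380819 and chr14:103380945-103381114. None of the 3 belonged to the higher-scoring 50% of the list. At the closest neighbouring peaks outside the window, 132 kb to the left and 112 kb to the right of its edges, the heights were 90 and 23.

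The window of BIRC3, a ubiquitin ligase of the inhibitor of apoptosis family and a target of NF-kB, had few but tall peaks. At 102.14 to 102.26 Mb of chromosome 11, this window of 120 kb held 2 lone peaks 28.6 kb apart. The taller, chr11:102217353-102218557, reached 98, the greatest height of the 52, at or above 95.7% of the list; its width was 1204 bp. The other, chr11:102187800-102188790, reached 80 with a width of 990 bp. The taller peak had the lower score (40.4 against 44.8) and the weaker significance value (-56.1 against -62.1). Its score per unit of height was 0.412, against a median of 0.506 over the 62 peaks on chromosome 11 of like height, of which 4.84% were at or below it. In the whole 1 Mb of flanks there were 5 peaks, none above a height of 75. BIRC2, a close paralogue of BIRC3, is its next protein-coding neighbour in the GRCh38 gene table, followed by TMEM123. Whether either of the 2 peaks lies at BIRC3 or at a neighbour such as BIRC2 was not determined.

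The window of MAP3K8 (TPL2), a kinase that links these receptors to the ERK pathway, had 1 tall peak with small ones round it. At 30.67 to 30.80 Mb of chromosome 10 the peak chr10:30722486-30723796 had a height of 59, equal to the upper quartile of the list, and a width of 1310 bp. The other 4 peaks had heights of 20, 22, 23 and 31 and widths of 99 to 245 bp. A cluster of 4, the tall peak included, spanned 21.8 kb, and the fifth peak stood 35.1 kb from its nearest neighbour. After peaks below the common minimum height of 26 were left out, 2 of the 5 remained.

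**Figure D3:**
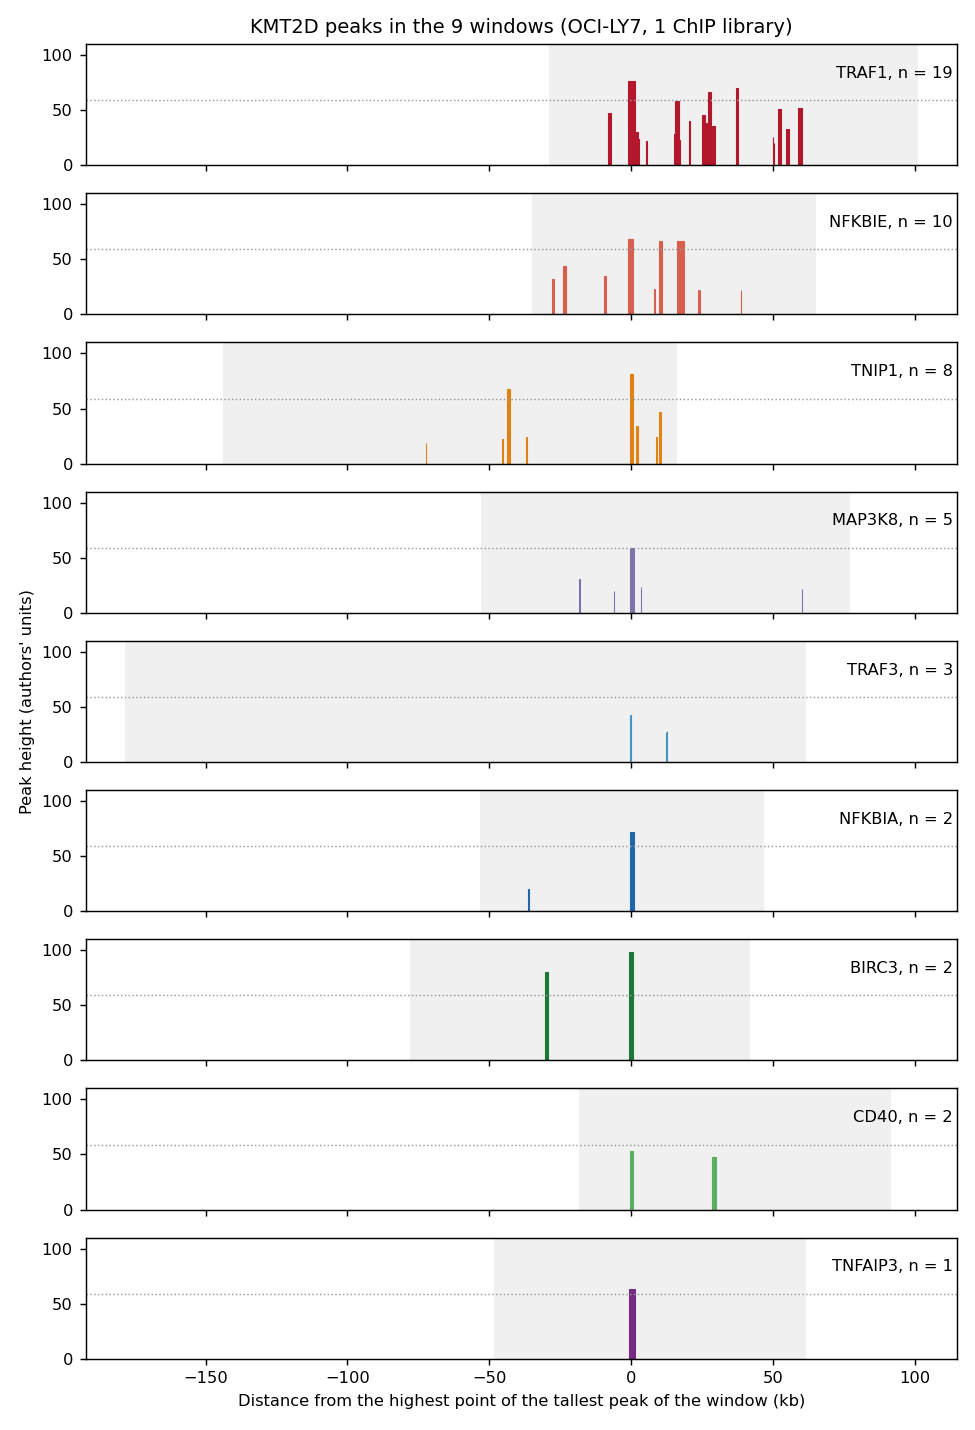
Each panel shows 1 window (grey) with its peaks as bars of true width; the vertical axis is height in the authors' units and the horizontal axis the distance in kb from the tallest peak of that window, and the dotted line marks the upper-quartile height of 59. The 19 peaks of the TRAF1 window spread over 68.3 kb in several groups. The BIRC3, CD40, NFKBIA and TNFAIP3 windows hold 1 or 2 lone peaks.

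Among the inhibitors, the window of NFKBIA, which encodes IkB alpha, had 2 lone peaks of very unequal size 35.6 kb apart. At 35.82 to 35.92 Mb of chromosome 14, the peak chr14:35872734-35874275 reached a height of 72 with a width of 1541 bp. This peak stood at or above 86.0% of peaks on that chromosome in height and was at or above 84.9% of 73 peaks of like height in width. The other, chr14:35836953-35837181, had a height of 20, near the lowest listed height of 19 on chromosome 14, and the weakest significance value but one of the 52, -15.4.

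The window of NFKBIE, which encodes IkB epsilon, held 10 peaks within 100 kb at 44.18 to 44.28 Mb of chromosome 6. Of these, 3 stood out and were nearly equal in height. These were chr6:44213798-44215573 (height 68, width 1775 bp), chr6:44224752-44225658 (height 67, width 906 bp) and chr6:44230834-44233590 (height 67). The last of them, 2756 bp wide, was the widest of all 52 peaks and at or above 99.2% of 126 peaks of like height on chromosome 6. All 3 belonged to a cluster of 7 peaks that spanned 33.7 kb at chr6:44205425-44239121, with 19.3% of it covered. The remaining 7 peaks of the window had heights of 22 to 44, and 3 of them, each of height 22, were 128 to 169 bp wide. A peak of height 69 lay just outside, 1.16 kb beyond the right edge. The GRCh38 table names HSP90AB1 and SLC35B2 before NFKBIE and TMEM151B and DRC5 after it. Which of the 10 peaks, the 3 tallest included, lie at NFKBIE and which at these neighbours was not determined.

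The window of TNFAIP3 (A20), a ubiquitin-editing enzyme that shuts off NF-kB signalling and is often inactivated in B-cell lymphoma, had a single listed peak. It lay at chr6:138187594-138189595 in the 110 kb window at 138.14 to 138.25 Mb, with a height of 63 and a width of 2001 bp. That height was at or above 82.2% of peaks on chromosome 6, and the width at or above 91.0% of 156 peaks of like height there. Its nearest listed neighbour was 82.1 kb away. The 1 Mb of flanks held 6 peaks, of median height 28 and at most 66. Whether TNFAIP3 is intact in these cells was not tested.

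The window of TNIP1 (ABIN1), a ubiquitin-binding partner of A20, had 8 peaks in 160 kb at 150.36 to 150.52 Mb of chromosome 5. The tallest, chr5:150503426-150504428, reached a height of 81, at or above 92.7% of peaks on that chromosome, and had the strongest significance value of the 52, -69.0; its width was 1002 bp. The second, chr5:150460066-150461130, had a height of 68 and a width of 1064 bp, and lay 43.3 kb from the first. The other 6 had heights of 19 to 47. After stitching, 3 peaks formed a cluster of 8.60 kb round the second. The tallest opened a cluster of 9 peaks at chr5:150503426-150544713, of which 4 lay in the window and the rest continued past its right edge. The first peak outside, 1.36 kb beyond that edge, had a height of 42. In the GRCh38 gene table GPX3 precedes TNIP1 and ANXA6 follows it.

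Clustering and width were compared over the 52 peaks. Of them, 42 (80.8%; exact interval 67.5 to 90.4%) lay in a cluster of at least 2 peaks, and the background is 63.4% of all peaks. Without the TRAF1 window the share was 69.7% with an interval of 51.3 to 84.4%, which includes the background. The 10 lone peaks had a median height of 50.5 (20 to 80), and 4 of them reached 59. The 42 clustered peaks had a median of 34.5 (28 to 46). The rest of the list was split in the same direction, with a median of 47 over 9061 lone peaks and 35 over 15659 clustered peaks. Peaks over 2000 bp wide numbered 3, in the TRAF1, NFKBIE and TNFAIP3 windows, against a background of 2.22%; their share, 5.77%, had an interval of 1.21 to 15.9%, which includes the background. Peaks up to 200 bp wide numbered 12 (23.1%), against 21.0% of the list. Set beside peaks of like height on the same chromosome, 29 of the 52 were wider than the median, close to an even split. They were 13 of 19 peaks in the TRAF1 window, 6 of 10 in the NFKBIE window and 3 of 8 in the TNIP1 window. The MAP3K8 window held 2 of 5 such peaks, and the TRAF3 and BIRC3 windows 0 of 5. All 5 peaks of the CD40, NFKBIA and TNFAIP3 windows were wider than that median.

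**Figure D4:**
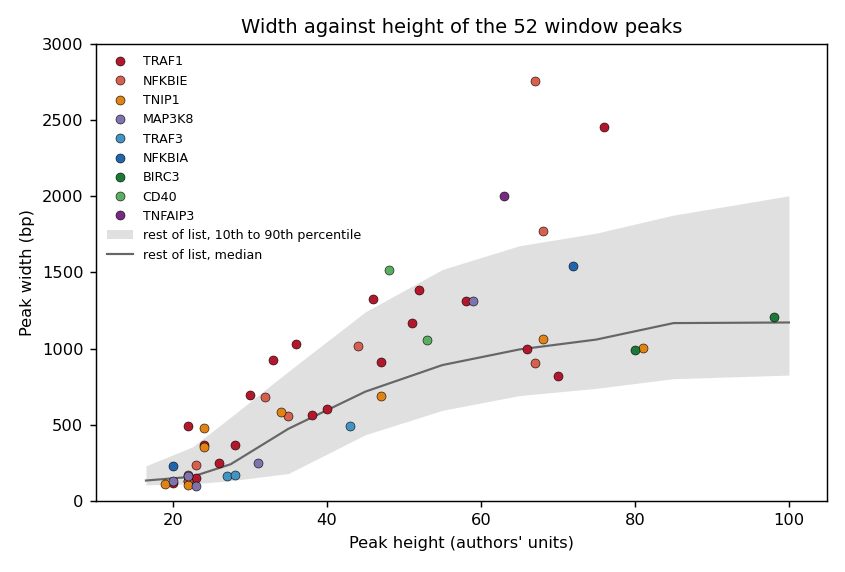
Width in bp (vertical axis) against height in the authors' units (horizontal axis) for the 52 window peaks, coloured by window; the grey band spans the 10th to 90th percentile of the rest of the list at that height and the line its median. The widest peaks of the NFKBIE (2756 bp), TRAF1 (2453 bp) and TNFAIP3 (2001 bp) windows lie above the band.

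The 7 windows with a peak at or above the upper-quartile height differed in what surrounded it. The BIRC3, NFKBIA and TNFAIP3 windows carried their tallest peaks alone, with the nearest listed neighbour 28.6, 35.6 and 82.1 kb away. In the TRAF1, NFKBIE, TNIP1 and MAP3K8 windows the tallest peak stood in a cluster of 19, 7, 9 and 4 peaks. In the higher-scoring 50% of the list the TRAF1 window had 7 peaks, the NFKBIE window 4, the TNIP1 window 3, the BIRC3 and CD40 windows 2 each, the MAP3K8, NFKBIA and TNFAIP3 windows 1 each and the TRAF3 window 0.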

How the data were processed

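The deposited peak list of the KMT2D library had 11 columns and no header, and the meaning of each was read from its values. CASAVA 1.8.2 and hg19 are named in the submitters' processing notes; which tools aligned the reads and called the peaks, at what threshold and with what use of the input, is not given in the sources used here. Whether positions count from 0 or 1 is not stated. The authors deposited a signal column of whole numbers (the height), a score of unstated scale, a second score that looks like the log10 of a p-value (the significance value), and the place of the highest point in percent of the peak. Values are the authors' own and serve only to describe and rank peaks within this list.

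The windows, members and comparisons were chosen with earlier results of these data known. The analysis took the 24772 peaks outside chromosome Y. Density was peaks per Mb between the first and last peak of a chromosome. Peaks at most 12500 bp apart were stitched into clusters. Tiles ran consecutively from the first peak of each chromosome. Like height means within 10% of it on the same chromosome. Each window is named; in each, the tallest and widest peaks, all those at or above the upper-quartile height (at most 5) and the largest cluster are given. No p-value was computed. Other genes of the pathway and the place of peaks relative to genes were not analysed here, since the windows cover these 9 genes and no hg19 annotation was used; gene order came from a RefSeq table on GRCh38.p14. Functions were tested on simulated data. Intervals are exact binomial, Poisson, conditional (ratios) and order-statistic (medians), at 95%. Python 3.11.15, numpy 2.4.6, pandas 2.3.3 and scipy 1.17.1 were used, with figures from matplotlib 3.10.9.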

Additional observations from a re-analysis of the deposited data

How the results depend on the processing

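Of 111 alternative values, 98 stayed within the counting interval of the reported value (or, for counts, within 1.5 times of it) and 13 moved. Part of the 98 could not move, such as the largest cluster whenever the TRAF1 window was kept and another left out. Leaving out each window in turn gave 33 to 51 peaks, a density ratio of 3.66 to 6.05, a median height of 34 to 38, a largest cluster of 9 to 19 peaks, a clustered share of 69.7 to 84.0%, an upper-quartile share of 22 to 30.3% and 5 to 6 windows at 2 times the list density. The lowest peak number, ratio, cluster size and clustered share came without the TRAF1 window. Against the 500 kb on each side the density ratio was 3.31; against each window's own chromosome it was 4.96. The higher-scoring 50% of the list gave 21 peaks of median height 66, a largest cluster of 4 and a clustered share of 52.4%; the rest of the list then had a median height of 59 and a clustered share of 36.4%. The common minimum height of 26 gave a median height of 47.5 (47 in the rest) and a largest cluster of 12. Fewer peaks enter under both choices, so smaller counts follow by construction, as does the higher median under the height limit. For the higher median under the score limit the cause was not tested. Merging peaks under 500 bp apart gave a largest cluster of 11. Stitching at 5 kb gave a largest cluster of 8 and a clustered share of 65.4%, against 50.7% in the rest. Widening each window by 25 kb gave 65 peaks and a ratio of 4.67. The density ratio stayed above 3 under each alternative run for it. The ratio to the flanks without the TRAF1 window was not among these. The other peaks of the windows' own chromosomes had a median height of 38 and those of the flanks 42. No paired analysis was possible because there was 1 KMT2D library and no test was made. The read depth is unknown, so it cannot be said which peaks a deeper library would add.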
